A study of Mus musculus with 16 samples.

Results

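AP_9 is a cluster of cells that the authors named in single-cell RNA sequencing of mouse brown fat, and its name begins with AP, read here as adipocyte progenitor. Its members are the cells that carry this name in the authors' per-cell annotation. They number 992 of 24352 named cells, or 4.07%, and 992 of the 2514 cells of the 4 AP clusters. The others are AP_8 with 1002 cells, AP_25 with 271 and AP_26 with 249. Gene values were not analysed here, so Pdgfra, Cd34, Col1a1 and Dcn, which mark such progenitors, could not be read in AP_9 and the name stands as the authors gave it.

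Cells came from the stromal vascular fraction of interscapular brown fat of C57BL6J mice, the cells that remain when digested tissue is freed of its floating fat cells. The study asked how the cell makeup of the tissue changes as cold remodels it. Mice were housed at 30 °C for 1 week (thermoneutral), at 22 °C for 1 week (room temperature), at 5 °C for 2 days (2-day cold) or at 5 °C for 7 days (7-day cold), with 4 libraries for each housing. The labels do not say whether a library holds 1 animal or several, nor that libraries are separate animals, so p-values measure the spread between libraries. Age and sex are not given there.

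Adipocyte progenitors are fibroblast-like stromal cells that lie near vessels and between fat cells. They keep the tissue's matrix and can divide and mature into fat cells. In brown fat, cold acts through sympathetic nerves, and new brown fat cells can arise from progenitors in the stroma.

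Each of the 16 libraries had between 1473 and 10005 cells, and their median UMIs (counted RNA molecules) per cell ranged from 1978.5 to 9819. Named cells were found in 15 libraries, 357 to 3739 in each; replicate 1 of 2-day cold has none and stands apart with a median mitochondrial share of 29.1%. Over all cells, a pair of libraries shared 0 to 39 cell barcodes. No barcode occurred in AP_9 cells of more than 1 library, and 26 AP_9 barcodes were also seen in some other library. AP_9 cells were spread unevenly, with 364 from thermoneutral housing, 125 from room temperature, 339 from 2-day cold and 164 from 7-day cold. Thermoneutral replicate 1 alone gave 287, or 28.9% of all AP_9 cells, while room temperature replicate 4 gave 9.

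The place of AP_9 among its neighbours was first followed through the authors' clusterings of the named cells, from coarse to fine. At resolutions 0.1 and 0.4, all 992 AP_9 cells lay in 1 cluster with all AP_8 and all AP_25 cells, and no AP_26 cell was in it. At 0.6, AP_8 had left: 951 AP_9 cells shared a cluster with all 271 AP_25 cells and 7 AP_8 cells. At 0.8 AP_25 had left too, with 989 AP_9 cells in a cluster of 992. Resolution 1.2 is the one that gave the names, so its cluster is AP_9 by definition. At 1.4, 42 AP_9 cells moved in with AP_8 and 945 stayed by themselves, and at 1.8 the main cluster held 982. The 42 had a median of 1643.5 UMIs and 8.53% mitochondrial UMIs, against 6135 and 2.09% in the 945. Of the 42, 13 came from 7-day cold replicate 4. AP_9 was thus grouped with AP_25 longer than with AP_8 as the clustering became finer, and with AP_26 at none of these resolutions.

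**Figure D1:**
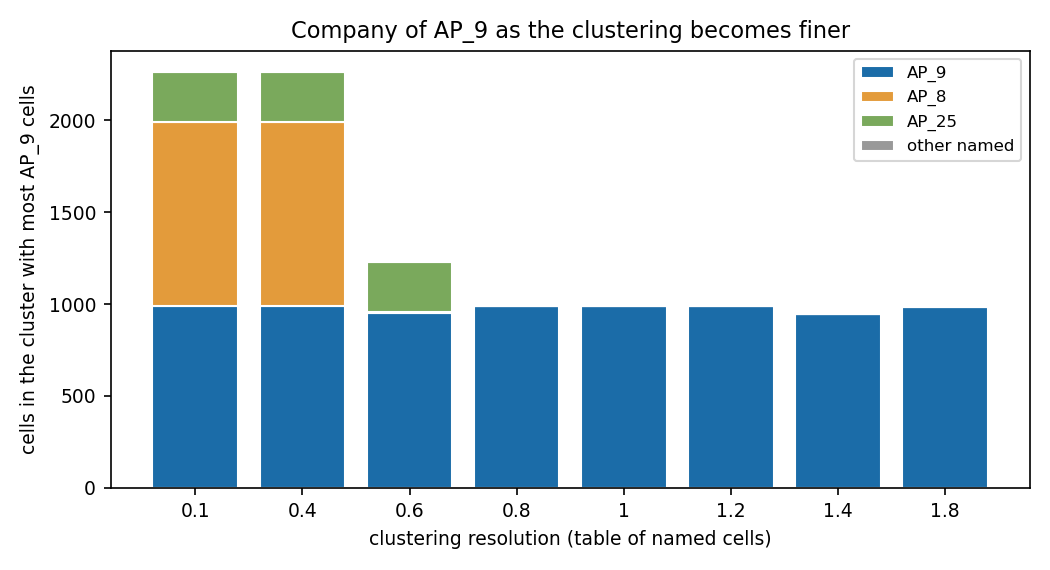
Number of cells (vertical axis) in the cluster that holds most AP_9 cells, at each clustering resolution of the named cells (horizontal axis), with colours for the name each cell carries. The bar falls from 2266 cells at resolution 0.1 to 1229 at 0.6 and 992 at 0.8, as AP_8 and then AP_25 leave it.

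The clusterings of all 109723 cells kept the AP cells closer together. At resolutions 0.1 to 0.8, AP_9, AP_25, AP_26 and all but 1 AP_8 cell lay in a single cluster of 2775 cells. At 1.8, 971 AP_9 cells were in cluster 13 with 1001 AP_8 and 271 AP_25 cells, and 21 were in cluster 48 with 247 AP_26 cells. None of these clusterings of all cells separated AP_9 from AP_8. Of the 21 AP_9 cells in the AP_26 cluster, 17 came from thermoneutral housing (14 of them from replicate 1 and 3 from replicate 3), 4 from room temperature and 0 of 503 from cold. A count of 0 among 503 cells allows a share of up to 0.596%, counting error only.

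A small group of AP_9 cells lay elsewhere. At resolution 0.6 of the named cells, 36 AP_9 cells were in cluster 7, whose other 1232 cells carry names outside the 4 AP clusters. Their median was 1434 UMIs and 18% mitochondrial UMIs, against 6135 UMIs and 2.10% in the 951 cells of the main cluster. Of the 36, 20 were from 7-day cold, 16 of these from its replicate 4. The share of AP cells is also given below without the AP_9 cells outside the main cluster.

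Across the study, AP_9 made up a larger part of the AP cells in thermoneutral housing than at room temperature. In thermoneutral replicates 1 to 4, AP_9 was 52.4%, 60.6%, 58.2% and 42.4% of AP cells. In room temperature replicates 1 to 4 it was 27.2%, 39.8%, 28.7% and 26.5%. The lowest thermoneutral library was thus above the highest room temperature library. In 2-day cold replicates 2 to 4 the share was 45.2%, 22.1% and 33.3%. In 7-day cold replicates 1 to 4 it was 44.4%, 24.0%, 32.1% and 48.9%. Both cold groups overlapped both other groups. Counting error is wide where AP cells are few: the 95% Wilson interval was 43.7% to 75.3% for thermoneutral replicate 2 (20 of 33 cells) and 14.6% to 43.1% for room temperature replicate 4 (9 of 34 cells).

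**Figure D2:**
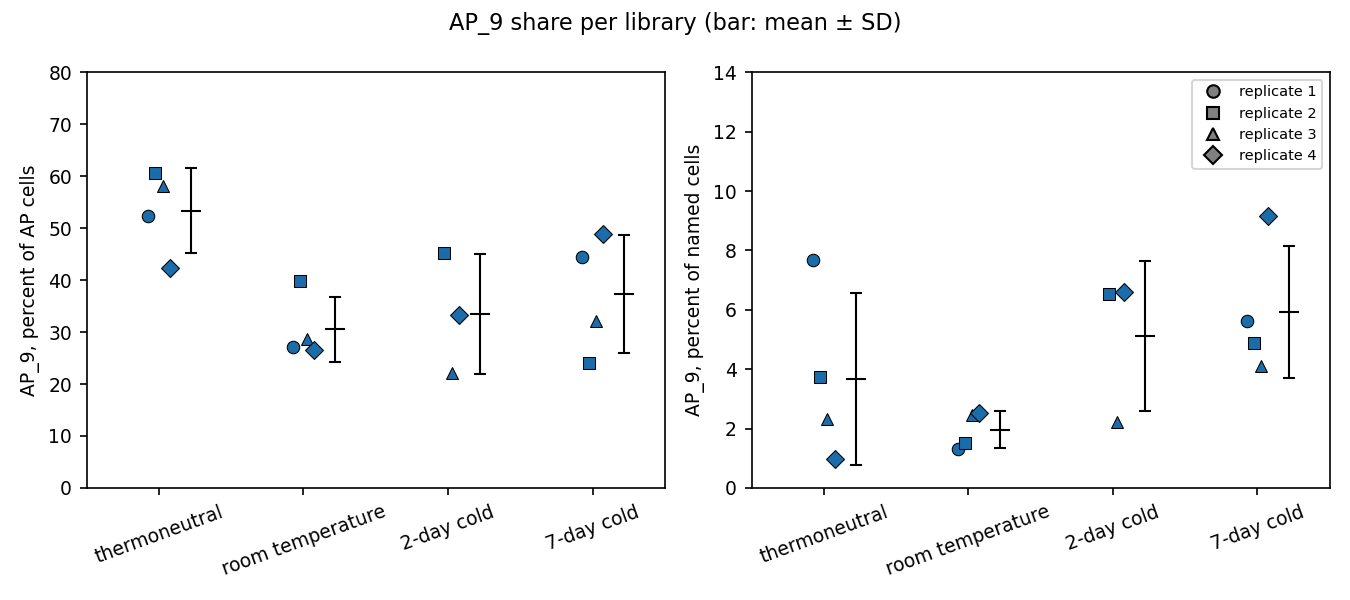
AP_9 as percent of AP cells (left) and of named cells (right) in each library, by housing, with marker shapes for replicate numbers and bars for mean ± SD. On the left the thermoneutral libraries (42.4% to 60.6%) lie above the room temperature libraries (26.5% to 39.8%); on the right the groups overlap except room temperature and 7-day cold.

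The mean share of AP cells was 53.4% ± 8.11 (SD, n = 4) in thermoneutral housing, 30.5% ± 6.27 (SD, n = 4) at room temperature, 33.5% ± 11.6 (SD, n = 3) after 2 days of cold and 37.3% ± 11.4 (SD, n = 4) after 7 days. Over the 4 housings together the difference had an exact permutation p of 0.0319, which became 0.0510 after Benjamini-Hochberg adjustment over the 8 such tests of AP_9 and its comparison cells. Room temperature minus thermoneutral was -22.9 percentage points, with a two-sided exact permutation p of 0.0286, the smallest that 4 libraries against 4 allow, and 0.171 after adjustment over 6 pairs. The 2-day and 7-day cold groups differed from thermoneutral housing by -19.9 (exact p = 0.114, adjusted 0.229) and -16.1 percentage points (exact p = 0.0857, adjusted 0.229). No pair passed the adjusted threshold of 0.05. The smallest exact p possible was 0.0286 or 0.0571 for each pair, so none could pass after adjustment over 6. The adjusted values therefore do not tell whether a pair differs. The 3 comparisons with thermoneutral housing share its 4 libraries. Among the other pairs the differences were 2.98, 6.80 and 3.82 percentage points (2-day cold minus room temperature, 7-day cold minus room temperature, 7-day minus 2-day cold), with exact p-values of 0.629, 0.286 and 0.686.

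The difference between room temperature and thermoneutral housing was nearly equal among libraries numbered 1 and 2 (-23.0) and those numbered 3 and 4 (-22.7 percentage points). That of 7-day cold was not, at -22.3 and -9.82, nor that of 2-day cold, at -11.3 and -22.6. With only the AP_9 cells of the main cluster at resolution 0.6, the test of all 4 housings gave an exact p of 0.0229 and room temperature minus thermoneutral was -22.6. The test of all 4 housings was not past 0.05 when any of thermoneutral replicates 1, 2 or 3 or room temperature replicates 1, 3 or 4 was left out (exact p = 0.0545 to 0.0974). It was also not past 0.05 when the VSM-AP cells, named between smooth muscle and progenitor, were added to the denominator (exact p = 0.168). Room temperature minus thermoneutral was then -13.9, and 7-day cold minus thermoneutral turned to 0.926 percentage points.

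AP_8 took the largest part of the remaining AP cells. For each AP_8 cell there were 0.893 to 2.86 AP_9 cells in the thermoneutral libraries and 0.429 to 0.922 at room temperature. AP_9 was the most numerous AP cluster in thermoneutral replicates 1, 2 and 3, while AP_8 was so in all 4 room temperature libraries. AP_8 made up 30.7% ± 12.3 (SD, n = 4) of AP cells in thermoneutral housing, 46.3% ± 12.5 at room temperature (n = 4), 43.3% ± 9.31 after 2 days of cold (n = 3) and 35.7% ± 11.6 after 7 days (n = 4). AP_25 and AP_26 were smaller, at 5.60% and 10.4% of AP cells on average in thermoneutral housing and 9.70% and 17.3% in 7-day cold.

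**Figure D3:**
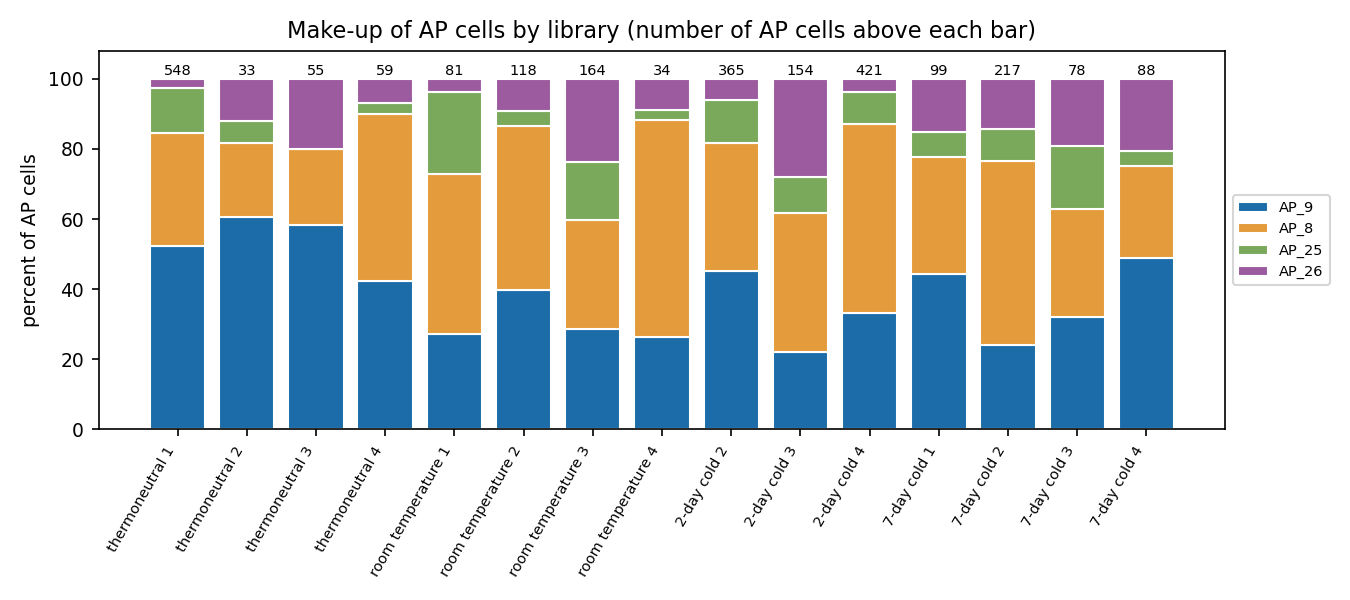
Percent of AP cells (vertical axis) that are AP_9, AP_8, AP_25 or AP_26 in each of the 15 libraries with named cells, with the number of AP cells above each bar. AP_9 fills 42.4% to 60.6% of the thermoneutral bars and 26.5% to 39.8% of the room temperature bars.

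As a share of all named cells, AP_9 varied far more between libraries of 1 housing. The thermoneutral libraries held 7.68%, 3.75%, 2.31% and 0.978% AP_9 (replicates 1 to 4), a wider range than that of room temperature, which held 1.31%, 1.53%, 2.46% and 2.52%. In 2-day cold the shares were 6.54%, 2.22% and 6.60% (replicates 2 to 4), and in 7-day cold 5.61%, 4.87%, 4.09% and 9.15%. Every 7-day cold library was above every room temperature library, and the thermoneutral libraries overlapped all other groups. The 4 AP clusters together were separated in the same way. They made up 3.83% to 9.52% of named cells at room temperature and 12.6% to 20.3% in 7-day cold. A share of cells cannot tell more AP_9 cells from fewer of the other named cells.

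On the log2 odds scale, fitted over 27 named clusters with limma, AP_9 changed in none of the 6 comparisons at an adjusted p under 0.05, by limma or by edgeR's quasi-likelihood test. At an unadjusted p under 0.05 it passed in 1 comparison by limma, that of 7-day cold with room temperature, and in 2 by edgeR. The difference of 7-day cold minus room temperature was 1.63 ± 0.61 (standard error; limma adjusted p = 0.0727), where 7.41% of the named clusters passed. That of 7-day cold minus thermoneutral was 1.02 ± 0.61 (limma adjusted p = 0.162), where 37% passed, and 2-day cold minus thermoneutral was 0.70 ± 0.66 (limma adjusted p = 0.424), where 11.1% passed. Room temperature minus thermoneutral was -0.61 ± 0.61 (limma adjusted p = 0.671), 2-day cold minus room temperature 1.31 ± 0.66 (0.254) and 7-day minus 2-day cold 0.33 ± 0.66 (0.876). In each of these 3, 0% of the named clusters passed by limma or edgeR (1, 3 and 2 of 27 at an unadjusted p under 0.05 by limma; 3, 4 and 3 by edgeR). With edgeR, 7.41%, 33.3% and 11.1% passed in the first 3. The median estimate over the 27 clusters was 0.68 for 7-day cold minus thermoneutral, against 1.02 for AP_9. In 7-day cold minus room temperature, AP_9 at 1.63 lay below AP_26 at 2.16 (limma adjusted p = 0.0718). It lay above AP_25 at 1.27 (limma adjusted p = 0.302) and AP_8 at 1.00 (limma adjusted p = 0.194).

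In 7-day cold minus thermoneutral, the other AP clusters had larger estimates than AP_9 in the same fit. AP_8 was at 1.84 ± 0.61 (limma adjusted p = 0.0290), AP_26 at 2.60 ± 0.72 (limma adjusted p = 0.0163) and AP_25 at 2.60 ± 1.00 (limma adjusted p = 0.0501). The difference between AP_9 and these clusters is what the share of AP cells measures. There that pair of housings had an exact permutation p of 0.0857 before adjustment, and no pair could pass after it. Without thermoneutral replicate 1, which holds most of that group's AP_9 cells, the AP_9 estimate was 1.52 with a limma adjusted p of 0.0447. By replicate number, 7-day cold minus thermoneutral was -0.05 among the libraries numbered 1 and 2, against 2.10 among those numbered 3 and 4. Room temperature minus thermoneutral was -1.98 and 0.76, and 7-day cold minus room temperature 1.93 and 1.34, in the same order. These values rest on 1 or 2 libraries per housing, and whether they differ by replicate number was not tested. With the split as a covariate, 7-day cold minus thermoneutral was 1.02 ± 0.60 (limma adjusted p = 0.158).

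The table of all cells adds the library without named cells. Cluster 13 of all cells, which holds AP_9 together with AP_8 and AP_25, made up 2.09% ± 2.21 of all cells in thermoneutral housing, 1.76% ± 0.712 at room temperature, 2.71% ± 1.64 in 2-day cold and 3.21% ± 2.55 in 7-day cold (SD, n = 4 each). In 2-day cold replicate 1 it was 1.43%, with 143 cells. Against thermoneutral housing the log2 odds ratios were 0.28, 0.76 and 0.76 for room temperature, 2-day and 7-day cold (limma adjusted p = 0.940, 0.720 and 0.632). Over 55 clusters of all cells, 0%, 9.09% and 0% passed in these comparisons by limma (1, 8 and 8 at an unadjusted p under 0.05), and 0, 7 and 0 clusters passed by edgeR. Leaving aside that library, 77 cells of the cluster, or 3.28%, carried no name.

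The phase calls of AP_9 cells moved with housing in the table of named cells, and did not pass the test with the calls of the table of all cells (exact p = 0.803, below). These calls place each cell in G1, S (DNA copying) or G2M (preparing for and passing through division) from scores of phase genes; they are the authors', and alone they do not show that cells were cycling. Among the 14 libraries with at least 20 AP_9 cells, 33.8%, 25%, 28.1% and 40.0% of AP_9 cells were called S or G2M in thermoneutral replicates 1 to 4. In room temperature replicates 1 to 3 the values were 36.4%, 38.3% and 51.1%. In 2-day cold replicates 2 to 4 they were 41.8%, 52.9% and 52.1%, and in 7-day cold replicates 1 to 4 they were 47.7%, 48.1%, 48% and 60.5%. Every cold library was above every thermoneutral library, and room temperature overlapped both. Room temperature replicate 4, left out with 9 AP_9 cells, was at 22.2%, below every thermoneutral library.

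The means were 31.7% ± 6.61 (SD, n = 4) in thermoneutral housing, 41.9% ± 7.99 (n = 3) at room temperature, 49.0% ± 6.20 (n = 3) after 2 days of cold and 51.1% ± 6.27 (n = 4) after 7 days. Over all 4 housings the exact permutation p was 0.0109, and 0.0218 adjusted over the 8 such tests. The difference of 7-day cold minus thermoneutral was 19.3 percentage points (exact p = 0.0286, the smallest possible, adjusted 0.171 over 6 pairs). That of 2-day cold minus thermoneutral was 17.2 (exact p = 0.0571, the smallest that 3 against 4 allow, adjusted 0.171). The housings together thus passed the test. No single pair could pass after adjustment with these numbers of libraries, so the pairs do not tell which housings differ. The difference of 7-day cold was 18.5 among the libraries numbered 1 and 2, against 20.2 among those numbered 3 and 4.

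In the table of named cells the difference lay in S calls, and none was detected in G2M calls. S calls took 16.6% ± 3.57 of AP_9 cells in thermoneutral housing (SD, n = 4), 28.9% ± 6.80 at room temperature (n = 3), 33.3% ± 7.12 after 2 days of cold (n = 3) and 39.4% ± 4.86 after 7 days (n = 4). The exact permutation p over the 4 housings was 0.00197, and 0.00787 adjusted over the 8 tests. Among the libraries with at least 20 AP_9 cells, every library of the other 3 housings was above every thermoneutral library. Room temperature replicate 4, left out with 9 AP_9 cells, had 11.1% S calls, below every thermoneutral library. G2M calls averaged 15.1%, 13.1%, 15.6% and 11.6% in the same order (exact p = 0.814). The rise in S calls was not particular to AP_9. In the other AP clusters S calls took 11.6% ± 2.72, 24.4% ± 12.8, 32.1% ± 9.34 and 35.6% ± 6.39 in the same order and libraries (mean ± SD). Their cold libraries, at 24.5% or more, lay above their thermoneutral ones, at 13.8% or less. S calls alone were not tested in those clusters.

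**Figure D4:**
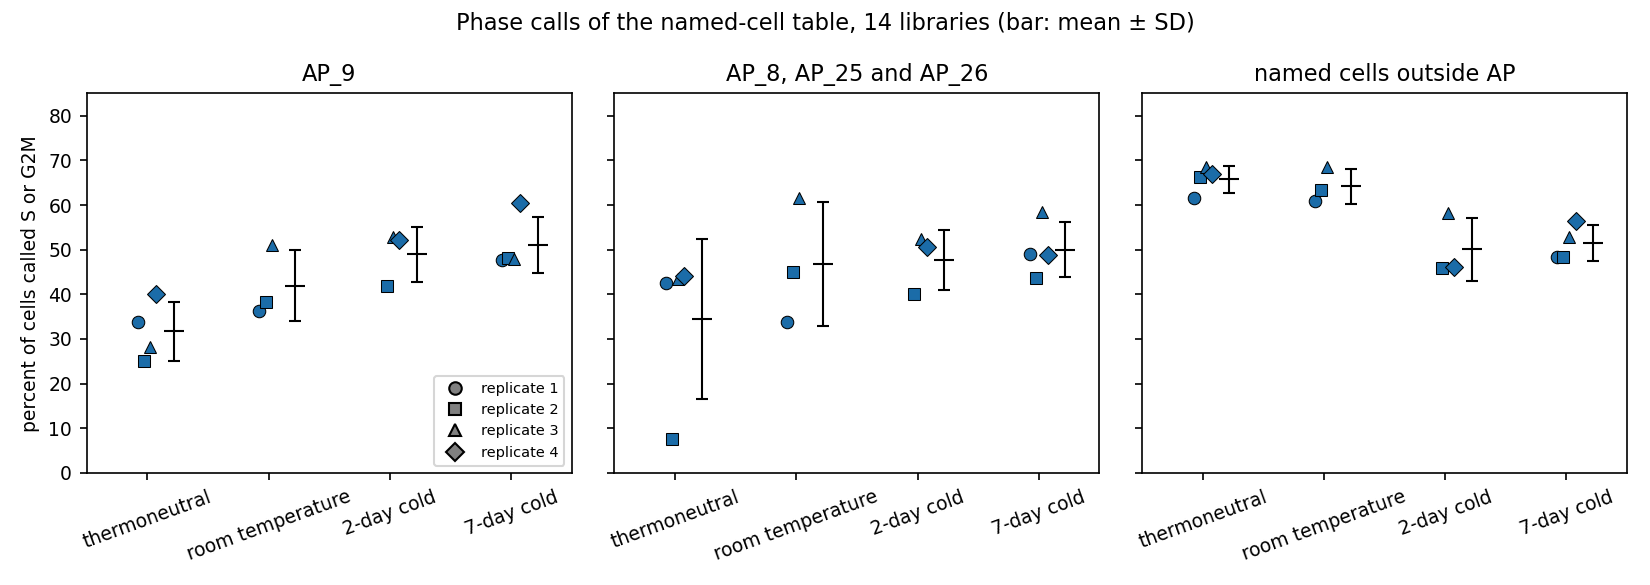
Percent of cells called S or G2M in the table of named cells (vertical axis) for AP_9, the other AP clusters and the named cells outside AP, in the same 14 libraries by housing, with bars for mean ± SD. AP_9 goes from 31.7% in thermoneutral housing to 51.1% in 7-day cold while the cells outside AP go from 65.8% to 51.5%.

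The other AP clusters were compared in the same 14 libraries. Their mean shares called S or G2M were 34.5%, 46.8%, 47.7% and 50.0% in thermoneutral housing, room temperature, 2-day and 7-day cold (exact p over the 4 = 0.358), and 1 thermoneutral library of 13 such cells lay at 7.69%. The AP_9 effect was not shown to differ from theirs: the difference between AP_9 and the other AP cells changed by 3.76 percentage points from thermoneutral housing to 7-day cold (exact p = 0.657, and 0.816 over the 4 housings).

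Against the named cells outside AP, AP_9 differed in its change with housing by the calls of the table of named cells, and not detectably by those of the table of all cells. By the former, the shares in those cells were 65.8%, 64.3%, 50.1% and 51.5%, lower in cold (exact p over the 4 housings = 0.00295, adjusted 0.00787 over the 8 tests). Those cells pool many clusters, and 37% of the 27 named clusters passed by limma in 7-day cold minus thermoneutral. Of the pooled cells, 1.58% to 6.49% had at least 20% mitochondrial UMIs in the thermoneutral libraries. In 2-day cold replicates 2 to 4 it was 15.9%, 5.80% and 27.5%, and in 7-day cold 5.88% to 11.3%. Whether cell makeup or quality moved the pooled share was not tested. AP_9 lay below the cells outside AP by a mean of -34.1 percentage points in thermoneutral housing, -22.4 at room temperature, -1.12 in 2-day cold and -0.450 in 7-day cold. This gap differed between the housings with an exact p of 0.000139, and 0.00111 adjusted over the 8 tests. From thermoneutral housing to 7-day cold it moved by 33.6 percentage points (exact p = 0.0286, adjusted 0.0857 over 6 pairs). Among the libraries with at least 20 AP_9 cells, the thermoneutral ones did not overlap those of any other housing in this gap. Room temperature replicate 4, left out with 9 AP_9 cells, was at 22.2% in AP_9 and 57.9% in the cells outside AP. Its gap lies within the thermoneutral range. With the calls of the table of all cells, the cells outside AP were at 14%, 17.8%, 17.2% and 14.2% in the same order of housings (exact p = 0.543), so they were not lower in cold. The gap was then -6.19, -5.53, -2.75 and -3.52 percentage points (exact p = 0.913), and from thermoneutral housing to 7-day cold it moved by 2.67 in place of 33.6.

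The phase result depends on which of the authors' tables gives the call. In the table of all cells the same AP_9 cells had lower shares called S or G2M. The means were 7.83% ± 8.13, 12.3% ± 2.94, 14.5% ± 2.82 and 10.7% ± 13.4 (SD) in the 4 housings, with an exact p of 0.803. Thermoneutral replicate 2 was at 20% and the other thermoneutral libraries at 3.13% to 4.18%. Replicate 4 of 7-day cold was at 30.2%, and the other 7-day cold libraries at 0% to 6.82%. S calls alone gave an exact p of 0.835 there, and the change of AP_9 minus the other AP cells from thermoneutral housing to 7-day cold turned to -1.92 percentage points. The calls of both tables were equal for 676 of the 992 cells, or 68.1%. The shares were also read among cells of like depth. Among AP_9 cells of 3000 to 8000 UMIs, in the libraries with at least 10 of them, the shares were 36.4%, 21.7% and 33.3% in thermoneutral housing (replicates 1, 3 and 4) and 50.0%, 55.0% and 40.0% in 7-day cold (replicates 1, 2 and 3). All cold libraries stayed above all thermoneutral ones there, and the exact p over the 4 housings was 0.0788.

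In depth and quality, AP_9 cells had a median of 5973 UMIs (828 to 62590), 2220.5 detected genes and 2.15% mitochondrial UMIs. By library the median UMIs were 8075, 5173.5, 5047 and 5598 in thermoneutral replicates 1 to 4. They were 9827.5, 7040 and 3852 in room temperature replicates 1 to 3, and 7938, 4920 and 3208 in 2-day cold replicates 2 to 4. In 7-day cold replicates 1 to 4 they were 5275, 6642.5, 3803 and 1757. All groups overlapped. Of 18 exact permutation tests of UMIs, genes and mitochondrial share between pairs of housings, 0 passed after adjustment and 0 had an unadjusted p under 0.05 (lowest exact p = 0.114). With these numbers of libraries none could pass after adjustment, and only 7-day cold against thermoneutral housing could reach an unadjusted p under 0.05. The tests therefore do not show that depth and quality were alike. The library medians of UMIs averaged 5973 in thermoneutral housing and 4369 in 7-day cold (exact p = 0.286).

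**Figure D5:**
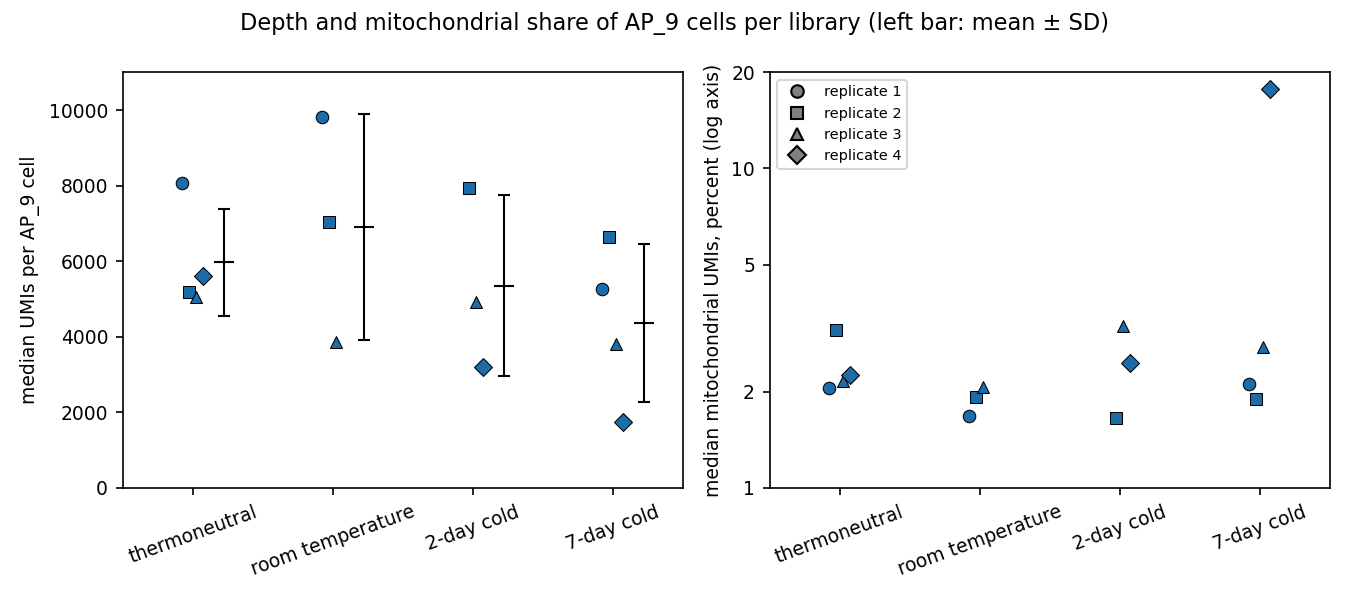
Median UMIs (left) and median percent of mitochondrial UMIs on a log axis (right) of AP_9 cells in the 14 libraries with at least 20 of them, by housing, with mean ± SD bars on the left. Replicate 4 of 7-day cold is the lowest in UMIs at 1757 and the highest in mitochondrial share at 17.7%.

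Replicate 4 of 7-day cold stood apart. Its 43 AP_9 cells had a median of 1757 UMIs, 746 genes and 17.7% mitochondrial UMIs, while the other 13 libraries lay at 1.65% to 3.21%. It held 16 of the 22 AP_9 cells with at least 20% mitochondrial UMIs, and it also had the highest share called S or G2M of the 14 libraries. Without cells of 20% or more, the exact p over the 4 housings was 0.0172 for the share of AP cells. For the share called S or G2M it was 0.0466, but there thermoneutral replicate 2 also fell below the minimum of 20 AP_9 cells and was left out. With a minimum of 10, which keeps it, the exact p was 0.0137; with all cells and without that library it was 0.0352.

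Within a library, AP_9 cells carried slightly more mitochondrial RNA than AP_8 cells, in 11 of 12 libraries with at least 20 cells of both, with a median ratio of 1.34. Their UMI count was higher in 3 of these 12, with a median ratio of 0.923. Against the named cells outside AP the mitochondrial share was lower in 13 of 14 libraries, at a median ratio of 0.328, with 7-day cold replicate 4 the exception. These are descriptions with no test, since the clusters were drawn from the same cells.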

How the data were processed

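Per the labels' protocols, the library kit was Chromium Single Cell 3' v3. STAR, Cell Ranger 3.0.1 and the mm10 build are named per the submitters' processing notes; how cells were filtered, integrated and clustered is not given in the sources used here. Deposited UMI and gene numbers of each cell are whole-number counts, not normalised. The deposited mitochondrial fraction runs from 0 to 1 and is printed in percent. A deposited ratio of log10 genes to log10 UMIs was used for no result. S and G2M scores, phase calls, cluster numbers and cluster names were deposited by the authors; the score and call differ between the table of all cells and that of named cells. No doublet caller was run, since gene values were not analysed here, and depth was not evened out by thinning.

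The library was the unit of replication, and its group came from the labels. The 27 named clusters that averaged 10 or more cells per library were tested: limma 3.58.1 (R 4.3.3) took the log2 odds of each share, with 0.5 cells added, with 4 groups in one fit. Benjamini-Hochberg adjustment ran over the clusters of each comparison, with a threshold of 0.05. edgeR 4.0.16 on cell counts was an alternative. Single values per library were compared with exact permutation tests, two-sided for pairs and on the sum of squares between groups for all 4 housings, after a minimum of 20 AP_9 cells for phase and quality. Wilson intervals cover counting error only. The fits and tests were checked on simulated data. Clusters named are AP_9, the other AP clusters, and clusters that share cells with AP_9. The intended counterpart in the table of all cells, a cluster with AP_9 as its most common name, did not exist, so the cluster with most AP_9 cells was used. That cluster, the test of phase over all 4 housings, the comparison with other cells, S and G2M alone, the 3000 to 8000 UMI range, and the minimum of 10 AP_9 cells among those under 20% mitochondrial UMIs were chosen after seeing the data. The members, lists and tests were chosen with earlier results of these data known. Replicate numbers 1 and 2 against 3 and 4 are not a labelled batch. Values within each are given as a description, and whether libraries differ along this split was not tested.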

Additional observations from a re-analysis of the deposited data

Results flagged for a closer look

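In 25 groups of 4 libraries examined for a single library far from the others, 4 had one; chance alone marks about 1 in 20 groups. Room temperature replicate 2 had 39.8% AP_9 among AP cells, above the other 3 libraries of that housing (26.5% to 28.7%). Replicate 4 of 7-day cold had 60.5% of its AP_9 cells called S or G2M, while the others lay at 47.7% to 48.1%. The same library had a median mitochondrial share of 17.7% in AP_9 cells, against 1.89% to 2.76% in the others. Room temperature replicate 1 had 2.81% of all its cells in cluster 13, which holds AP_9 with AP_8 and AP_25, against 1.32% to 1.56% in the others.

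AP_9 and the named cells outside AP differed in how their share called S or G2M changed with housing. The change from thermoneutral housing to 7-day cold was 33.6 percentage points larger in AP_9 (exact permutation p over the 4 housings = 0.000139). In AP_9 the mean was 31.7% in thermoneutral housing and 51.1% in 7-day cold, and in the named cells outside AP 65.8% and 51.5%. The other AP clusters went from 34.5% to 50.0%, so the rise is not particular to AP_9. The AP_9 change was not shown to differ from theirs (exact permutation p over the 4 housings = 0.816). These are calls of the table of named cells. Whether the makeup or quality of the pooled cells outside AP moved their share was not tested. With the calls of the table of all cells, the change was 2.67 percentage points larger in AP_9 (exact permutation p over the 4 housings = 0.913).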

How the results depend on the processing

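Changes of sign arose among differences that passed no test. For the share of named cells, 2-day cold minus thermoneutral was -0.12 with centred log ratios and -0.13 in cells with at least the median UMI count, and 7-day minus 2-day cold was -0.027 with all cells as denominator. The share in cluster 13 of all cells, room temperature minus thermoneutral, was -0.25 with edgeR. With TMM scaling in edgeR, 7-day cold minus room temperature was 1.70 and passed (adjusted p = 0.0436). For the share of AP cells, 7-day cold minus thermoneutral was 0.926 with VSM-AP in the denominator, and in cells with at least the median UMI count 7-day cold minus room temperature was -5.48 and minus 2-day cold -6.10. The exact p over the 4 housings was 0.0879 in those cells and 0.168 with VSM-AP. For S or G2M calls, those of the table of all cells gave -1.55 for 7-day cold minus room temperature, -3.75 minus 2-day cold, and an exact p of 0.803 over the 4 housings (S alone 0.835, AP_9 minus the named cells outside AP 0.913); AP_9 minus the other AP cells turned to -1.92 (7-day cold minus thermoneutral). Cells of 3000 to 8000 UMIs gave -3.51 for 7-day minus 2-day cold and an exact p of 0.0788. The cause was not tested.

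Leaving out each library in turn, the ranges with a change of sign or call were 0.50 to 1.52 (7-day cold minus thermoneutral) and -0.21 to 0.60 (7-day minus 2-day cold) for the log2 odds of the share of named cells, and -0.30 to 0.94 for cluster 13 (room temperature minus thermoneutral). For the share of AP cells they were -2.86 to 8.70 (2-day cold minus room temperature), -1.90 to 9.66 (7-day minus 2-day cold) and an exact p of 0.0166 to 0.0974 over the 4 housings. For S or G2M calls they were -1.47 to 4.09 (7-day minus 2-day cold) and, for AP_9 minus the other AP cells, -0.446 to 10.4 (7-day cold minus thermoneutral). The exact p over the 4 housings stayed at 0.00467 to 0.0352 for S or G2M calls.

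Same-numbered libraries share only a number in the labels: 12 of 21 correlations of their deviations were over 0.1 (-0.302 to 0.655, median 0.22), against 19 of 63 between different numbers (median -0.036). Not every pair was over 0.1, so they were not treated as paired. With a replicate block, 7-day cold minus thermoneutral was 1.02 (limma adjusted p = 0.194) for the share of named cells. With the replicate block, room temperature minus thermoneutral was -22.9 for the share of AP cells (exact p = 0.125, the smallest that 4 pairs allow). In the limma fits, no call between pairs of housings changed with the block. In the exact tests no pair could pass after adjustment with or without it, so those calls could not change. In cells with at least the median UMI count, phase could not be compared with thermoneutral housing, where 1 library had at least 10 such AP_9 cells. Only 40.3% of AP_9 cells reach that depth, and libraries with 9 to 25 AP_9 cells limit the precision of every share.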
